A study of Mus musculus with 9 samples.

Results

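The genes described here are 114 cell cycle regulators and replication genes among the 14020 genes measured in cultured mouse hepatic stellate cells. They were taken by symbol: cyclins A, B, D and E, cyclin-dependent kinases (CDKs) and their inhibitors, CDC genes, MCM helicase genes, centromere proteins, Aurora, BUB and polo-like kinases, E2F factors, Mki67 and Top2a. The pattern matched 125 rows, and 11 of these were left out, namely Cdkn1c and the symbols that start with Cdc42. A choice by name also brings in 18 genes with other or mixed roles, such as the chaperone partner Cdc37, and these are counted with the rest.

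The cells were labelled as hepatic stellate cells from mouse liver, the vitamin A-storing pericytes that turn into matrix-producing myofibroblasts on activation. RNA was sequenced in 9 libraries, 3 each from an Nbr1 and Sqstm1 double knock-out (DKO), a Sqstm1 knock-out (Sqstm1 KO) and wild type (WT). All were grown for 4 days in serum-containing medium under basal conditions. Sqstm1 encodes the autophagy receptor p62 and Nbr1 a related receptor. The sources used here do not give how the alleles were made, the strain, sex and age of the mice or the source of each replicate. The p-values thus measure the spread between libraries, which may be technical.

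The cell division cycle is driven by CDKs that act only when bound to a cyclin. D-type cyclins with CDK4 or CDK6 start it by releasing E2F transcription factors, which switch on replication genes such as the MCM helicase. Cyclin A, cyclin B, CDK1, the polo-like and Aurora kinases and the centromere proteins take the cell through mitosis. CDK inhibitors such as p21, p27, p15 and p16 hold the cycle back. Quiescent stellate cells divide little, and proliferation is part of their activation in culture.

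Promoters of 4 of these genes are shown because they carry short motifs that are textbook features of cell cycle promoters: the CHR element (TTTGAA), the CCAAT box (CCAAT) and E2F sites (TTCCCGCC or TTTGGCGC). Each sequence is the 250 bases before the gene's start in RefSeq (GRCm38.p6), written 5′ to 3′ on the gene's strand. Capitals mark matches on either strand, so that ATTGG is a CCAAT box read from the other strand. Cdk1 encodes the kinase of mitotic entry (chr10:69352913-69353162, minus strand), Ccnb2 one of its cyclins (chr9:70421555-70421804, minus strand), Mki67 the proliferation antigen Ki-67 (chr7:135716380-135716629, minus strand) and Mcm6 a subunit of the replicative helicase (chr1:128359706-128359955, minus strand). The 4 genes, like the motifs, were picked after the values were seen.
Cdk1: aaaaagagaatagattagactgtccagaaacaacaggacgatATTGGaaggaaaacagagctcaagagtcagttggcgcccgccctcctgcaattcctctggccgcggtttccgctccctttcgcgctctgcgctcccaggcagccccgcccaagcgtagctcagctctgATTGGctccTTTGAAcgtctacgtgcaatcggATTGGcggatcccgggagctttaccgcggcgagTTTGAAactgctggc
Ccnb2: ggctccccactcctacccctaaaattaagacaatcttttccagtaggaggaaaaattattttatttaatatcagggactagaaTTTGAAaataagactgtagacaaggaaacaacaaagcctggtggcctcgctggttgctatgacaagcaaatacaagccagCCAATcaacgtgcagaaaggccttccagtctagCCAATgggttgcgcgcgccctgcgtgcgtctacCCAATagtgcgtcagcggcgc
Mki67: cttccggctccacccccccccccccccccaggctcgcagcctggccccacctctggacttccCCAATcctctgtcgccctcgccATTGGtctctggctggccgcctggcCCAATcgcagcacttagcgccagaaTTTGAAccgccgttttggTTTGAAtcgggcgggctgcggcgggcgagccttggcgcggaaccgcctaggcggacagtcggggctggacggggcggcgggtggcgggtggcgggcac
Mcm6: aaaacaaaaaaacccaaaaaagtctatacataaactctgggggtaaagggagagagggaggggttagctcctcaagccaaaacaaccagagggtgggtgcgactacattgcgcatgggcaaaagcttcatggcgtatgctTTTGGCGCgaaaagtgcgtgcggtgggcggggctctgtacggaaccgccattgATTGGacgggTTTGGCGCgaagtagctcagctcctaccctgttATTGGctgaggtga

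In the 3 mitotic genes shown the capitals are CHR and CCAAT letters, while Mcm6 has E2F letters beside its CCAAT boxes. RefSeq promoters were matched for 98 of the 114 genes, and 27025 promoters of the same length served as the comparison. A CCAAT box was found in 54 of the 98 (55.1%), against 34.5% of all promoters. The E2F letters were found in 7 (7.14%), against 2.29% of all promoters. The CHR letters were found in 19 (19.4%), against 16.3% of all promoters. The split seen in the promoters shown does not hold over the 98. Cdc20 and Top2a had the CHR letters, while Ccnb1, Aurka, Bub1, Plk1 and Cenpe did not, and the replication genes Mcm2 and Cdc45 did. Mcm5 had the E2F letters, while Mcm2, Mcm3, Mcm7, Mcm8, Mcm9 and Mcm10 did not. These are matches of letters and do not show that a factor binds there. Only the exact letters given above were searched, so a missing match does not show that a site is absent.

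Whole reads per library ran between 819677 and 1467793, and the 114 genes took 1.18% to 1.37% of them. Library 3 of Sqstm1 KO stood apart: 12673 genes had reads in it, its 10 highest genes took 18.5% of its reads, and its correlations with its own group were 0.853 and 0.847, while the other pairs within groups reached at least 0.878. Sqstm1 had 25.8, 51.4 and 59.9 in DKO cells, 40.8, 30.8 and 86.8 in Sqstm1 KO cells and 223, 255 and 243 in WT cells. It was called lower in DKO than in WT (adjusted p = 0.00116) and lower in Sqstm1 KO than in WT (adjusted p = 0.00230; limma with Benjamini-Hochberg adjustment). Nbr1 had 81.3, 79.9 and 111 in DKO cells, 75.5, 72.2 and 88.9 in Sqstm1 KO cells and 106, 92.7 and 106 in WT cells. No comparison passed, so the Nbr1 part of the DKO label has no check in the gene-level values. The Y-linked gene Ddx3y had 47.8, 44.5 and 54.8 in DKO cells, 0, 0 and 0 in Sqstm1 KO cells and 76.3, 67.8 and 76.4 in WT cells. Eif2s3y, Kdm5d and Uty likewise had no read in the Sqstm1 KO libraries. Sex and genotype therefore cannot be told apart in comparisons with that group. Eif2s3y, also Y-linked, had 5.74, 10.3 and 29.3 in DKO cells, 0, 0 and 0 in Sqstm1 KO cells and 72.2, 64.8 and 60.6 in WT cells and was called lower in DKO than in WT (adjusted p = 0.0162). Ddx3y, Kdm5d and Uty were not called there (adjusted p = 0.353, 0.978 and 0.657). The part of that difference in the calls between DKO and WT, Ccnd1 included, was not tested. Of 16 stellate cell markers 10 had values, with a sum of 4309 to 6584 in DKO, 5325 to 6141 in Sqstm1 KO and 1732 to 1881 in WT. Of these 10, 6 were called higher in DKO than in WT (4.11% of all genes) and 0 lower. Between Sqstm1 KO and WT 4 were called higher in Sqstm1 KO (2.43% of all genes) and 0 lower. Between DKO and Sqstm1 KO 2 were called higher in DKO and 1 lower (4.42% and 1.51% of all genes). The markers Des, Lrat, Reln, Ngfr, Lhx2 and Colec11 had no values here. Macrophage markers (4 of 11 with values) summed to 14.3 to 29.3 in DKO, 8.68 to 12.2 in Sqstm1 KO and 20.3 to 35.4 in WT. The 1 macrophage marker tested was called lower in Sqstm1 KO than in WT (3.18% of all genes) and higher in DKO than in Sqstm1 KO (4.42%). Endothelial markers (2 of 10) summed to 92.8 to 191 in DKO, 56.8 to 191 in Sqstm1 KO and 70.3 to 88.5 in WT. Cholangiocyte markers (2 of 6) summed to 25.8 to 49.1 in DKO, 29.2 to 34.7 in Sqstm1 KO and 16.3 to 26.4 in WT. Portal fibroblast and mesothelial markers (5 of 10) summed to 350.2 to 356 in DKO, 260.3 to 446 in Sqstm1 KO and 237 to 280 in WT. Of the 4 tested, 1 was called lower in Sqstm1 KO than in WT (3.18% of all genes). In DKO 1 was called higher than in Sqstm1 KO and 1 higher than in WT (4.42% and 4.11% of all genes). No endothelial or cholangiocyte marker was called. The lists of 10 hepatocyte and 8 lymphocyte and neutrophil markers had no values here. The part of these markers in the results below was not tested, nor was that of library 3 beyond the fits without it.

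Values below are normalized counts: reads of a gene divided by the library's size factor, given for replicates 1, 2 and 3 in order. A gene was tested where at least 3 libraries had a value of at least 10, which 102 of the 114 genes met. The 12 below that were Cdc14a, Cdk10, Cdk18, Cdk5r1, Cdkn2d, Cdkn3, Cenpl, Cenpm, Cenps, Cenpx, E2f2 and Mcm8, and the highest of their means over the 9 libraries was 8.23, for Cdk10. A gene is called where limma's p, adjusted by the Benjamini-Hochberg method over 10118 genes, was under 0.05.

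Few of the cell cycle genes passed the test between genotypes. Of the 102 tested, 1 was called between DKO and WT: Ccnd1, which encodes cyclin D1, was lower in DKO. Over all genes tested, 6.42% were called between DKO and WT, 2.31% as lower. Between DKO and Sqstm1 KO limma called none of the 102, where 5.93% of all genes were called; 16 had an unadjusted p under 0.05 (15.7%, against 18.8% of all genes), and edgeR and DESeq2 on the recovered reads called 0. Between Sqstm1 KO and WT limma again called none, where 5.61% of all genes were called; 11 had an unadjusted p under 0.05 (10.8%, against 19.4% of all genes), edgeR called 0 and DESeq2 called 1, Cdk16. Between DKO and WT 18 had an unadjusted p under 0.05 (17.6%, against 21.4% of all genes), and both edgeR and DESeq2 called Ccnd1 alone.

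A missed threshold does not show that levels were equal. The median SE of a log2 fold change was 0.36 over the 102 genes, and log2 fold changes are on the scale of log2(value + 1), which understates changes of low genes. The 95% interval lay within a 2-fold change in either direction for 25 of the 102 genes between DKO and Sqstm1 KO, 25 between DKO and WT and 39 between Sqstm1 KO and WT. Over all genes tested it did so for 27.9%, 26.3% and 27.7%, in the same order. The estimated log2 fold changes ran from -1.28 to 1.15 between DKO and Sqstm1 KO, from -1.19 to 0.92 between DKO and WT and from -1.02 to 1.17 between Sqstm1 KO and WT.

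The median log2 fold change of the 102 genes was -0.29 between DKO and Sqstm1 KO (all genes -0.01), with 64 genes negative. It was 0.15 between Sqstm1 KO and WT (all genes -0.01), with 68 genes positive, and 0.01 between DKO and WT (all genes -0.02), with 51 genes on each side. The first pair of comparisons shares the Sqstm1 KO libraries, and without library 3 of that group the median between DKO and Sqstm1 KO was -0.15. Without library 3 of DKO it was -0.16. Without library 1 of WT the median between Sqstm1 KO and WT was 0.059. With any 1 of the 9 libraries left out it ran from 0.059 to 0.196 between Sqstm1 KO and WT, from -0.333 to -0.153 between DKO and Sqstm1 KO and from -0.091 to 0.082 between DKO and WT. That Sqstm1 KO library held the highest of the 9 values for 29 of the 102 genes and the lowest for 11.

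**Figure D1:**
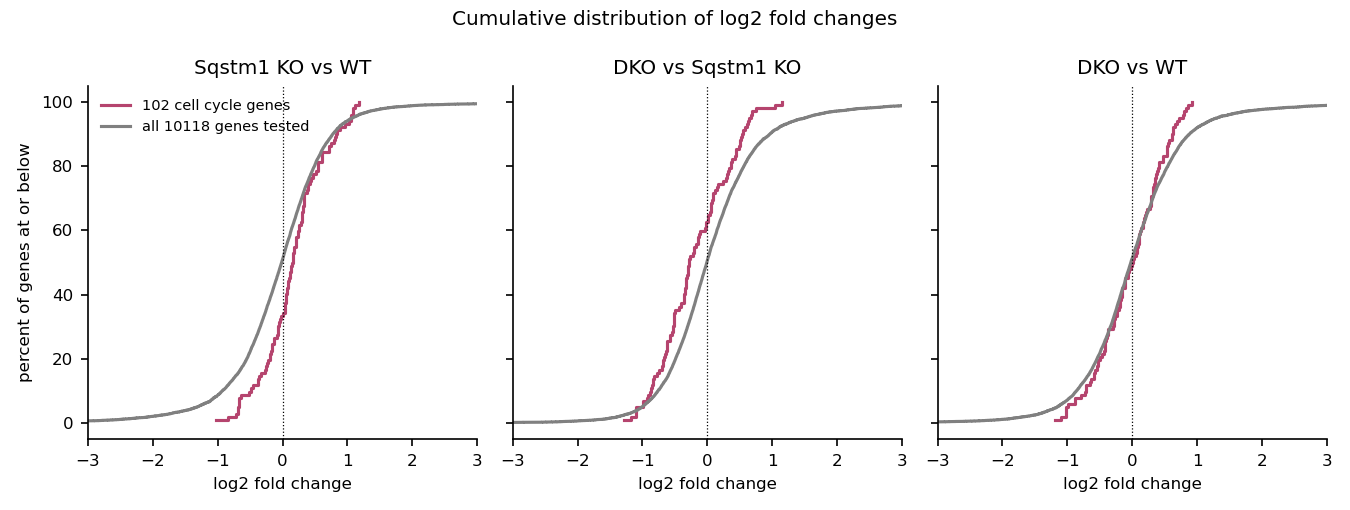
Cumulative share of genes (percent, y axis) at or below each log2 fold change (x axis, cut at 3 in either direction) for the 102 tested cell cycle genes and all 10118 genes tested, in each comparison. The cell cycle curve lies to the right of all genes at its median in Sqstm1 KO against WT (0.15), to the left in DKO against Sqstm1 KO (-0.29) and near it in DKO against WT (0.01).

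Groups that did not overlap were found for 25 of the 102 genes between DKO and WT, 12 higher and 13 lower in DKO, where 31.2% of all genes did not overlap (15.7% higher, 15.5% lower). Between DKO and Sqstm1 KO they were 19, with 9 higher and 10 lower in DKO, where 21.0% of all genes did not overlap (11.5% higher, 9.47% lower). Between Sqstm1 KO and WT they were 21, of which 19 were higher in Sqstm1 KO and 2, Cdk2 and Cenpo, lower, where 26.0% of all genes did not overlap (12.4% higher, 13.6% lower).

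Cyclins are the regulatory subunits that switch CDKs on. Ccnd1, the D-type cyclin that couples growth signals to the start of the cycle, had 31.6, 38.8 and 45.8 in DKO cells, 73.5, 55.2 and 59.7 in Sqstm1 KO cells and 87.2, 68.5 and 81.3 in WT cells. The DKO libraries lay below all others and the Sqstm1 KO and WT ranges overlapped. Ccnd1 fell in DKO against WT (log2 fold change -1.02, SE 0.26, adjusted p = 0.0326; limma), a call that was lost, at an adjusted p of up to 0.135, when any single DKO or WT library was left out. Against Sqstm1 KO its log2 fold change in DKO was -0.69 (adjusted p = 0.170), and between Sqstm1 KO and WT it was -0.33 (adjusted p = 0.532).

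The Ccnd1 value has a limit set by its neighbour. In GENCODE M21 (GRCm38) Ccnd1 lies on the minus strand at chr7:144929931-144939925, and 1100 bases of its exons overlap exons of a gene listed as LTO1 on the plus strand, at chr7:144915100-144931701. LTO1 is known from yeast and human cells as an adaptor that helps deliver an iron-sulphur cluster to a ribosome recycling factor. Its row had 522, 498 and 559 in DKO cells, 2200.0, 1534 and 2163 in Sqstm1 KO cells and 3277, 2679 and 2215 in WT cells, so the DKO libraries were far below all others. It fell in DKO against WT (log2 fold change -2.35, SE 0.29, adjusted p = 1.85e-04; limma) and against Sqstm1 KO (log2 fold change -1.88, SE 0.29, adjusted p = 0.00123), and both calls held in every one of the 18 alternatives tried. Between Sqstm1 KO and WT it did not pass (log2 fold change -0.47, adjusted p = 0.411). Whether reads were counted by strand is not given in the sources used here, so reads of Ccnd1 and LTO1 cannot be told apart. The same limit holds, among the other cell cycle genes named above or below, for Ccna2, Ccnd2, Ccnd3, Ccne2, Cdc14a, Cdc20, Cdc23, Cdc37l1, Cdc45, Cdca8, Cdk2, Cdk4, Cdk10, Cdk18, Cdkn1a, Cenpo, Cenpu, E2f5, E2f7, E2f8, Mcm7, Mcm9 and Plk1. Among the 32 rows of genes that overlap a cell cycle gene on the other strand, 25 were tested, and LTO1 was the 1 called, lower in DKO in both of its comparisons. Over all genes tested, 5.93% were called between DKO and Sqstm1 KO (1.51% lower) and 6.42% between DKO and WT (2.31% lower).

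The other cyclins were not called in any comparison. Ccnb1, a cyclin of mitosis, had 31.6, 41.1 and 30.6 in DKO cells, 29.6, 25.2 and 11.9 in Sqstm1 KO cells and 16.3, 31.6 and 30.9 in WT cells. Ccnb2, its close relative, had 17.2, 10.3 and 10.2 in DKO cells, 9.19, 25.97 and 37.96 in Sqstm1 KO cells and 21.8, 30.1 and 30.9 in WT cells. DKO was below WT in all libraries, and the Sqstm1 KO libraries spread across both (log2 fold change -1.10 between DKO and WT, adjusted p = 0.181). Ccnd2 had 106, 111 and 80.2 in DKO cells, 105, 129.9 and 251 in Sqstm1 KO cells and 68.1, 102 and 94.6 in WT cells. Ccnd3 had 25.8, 17.1 and 26.7 in DKO cells, 36.8, 43.01 and 45.6 in Sqstm1 KO cells and 31.3, 10.5 and 21.8 in WT cells. Both were above WT in all Sqstm1 KO libraries, with log2 fold changes of 0.79 and 1.06 and adjusted p of 0.190 and 0.132. The highest cyclin by count was Ccna2, which acts in S phase and at mitotic entry, with 978, 553 and 708 in DKO cells, 742, 536 and 1771 in Sqstm1 KO cells and 849.8, 621 and 541 in WT cells.

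**Figure D2:**
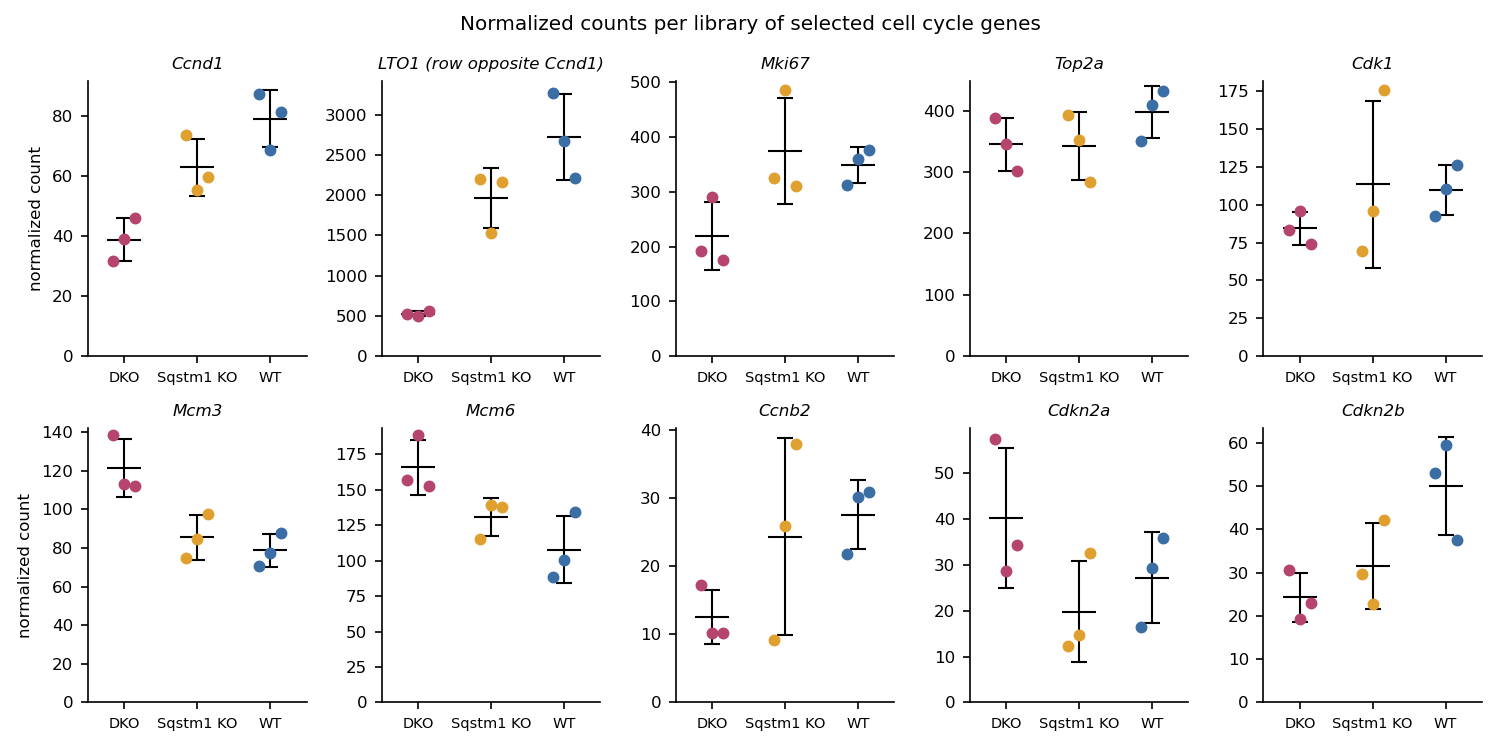
Normalized count (y axis, linear from 0) of 9 cell cycle genes and of the LTO1 row in each library of DKO, Sqstm1 KO and WT cells; points are libraries, bars the mean and SD of 3. Ccnd1 lies between 31.6 and 45.8 in DKO, below the other groups, and LTO1 between 498 and 559, while the Top2a groups overlap.

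Neither proliferation marker was called. Mki67, which coats mitotic chromosomes and is absent from resting cells, had 191, 290.0 and 176 in DKO cells, 326, 485 and 311 in Sqstm1 KO cells and 313, 359 and 377 in WT cells. Every DKO library was below every Sqstm1 KO and WT library, yet neither comparison passed (DKO against Sqstm1 KO log2 fold change -0.78, SE 0.27, adjusted p = 0.131; DKO against WT log2 fold change -0.70, SE 0.27, adjusted p = 0.151). In bulk RNA, fewer dividing cells and less RNA per dividing cell cannot be told apart. Top2a, the topoisomerase that untangles replicated DNA, had 388, 346 and 302 in DKO cells, 393, 353 and 283 in Sqstm1 KO cells and 350.0, 409.8 and 432 in WT cells. Its DKO and Sqstm1 KO libraries overlapped (log2 fold change 0.02, 95% interval -0.51 to 0.54). Without library 3 of Sqstm1 KO, the calls between DKO and Sqstm1 KO were 3 of 100 tested: Mki67 and Cenpe lower and Cdkn2a higher in DKO. In that fit 764 of all 9958 genes tested were called.

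CDKs of the cell cycle were not called. Cdk1 had 83.2, 95.9 and 73.9 in DKO cells, 69.4, 95.8 and 176 in Sqstm1 KO cells and 92.6, 111 and 126 in WT cells, with the highest and the lowest value both in Sqstm1 KO. Cdk4, the partner of D-type cyclins, had 99.4, 151 and 138 in DKO cells, 113, 144 and 197 in Sqstm1 KO cells and 144, 176 and 188 in WT cells. Among the CDKs that act mainly in transcription or elsewhere, Cdk8, the kinase of the Mediator complex, had 32.5, 37.7 and 28.02 in DKO cells, 52.1, 45.4 and 86.8 in Sqstm1 KO cells and 58.6, 61.8 and 50.3 in WT cells. Its DKO libraries were all below the other groups, without a call (DKO against Sqstm1 KO log2 fold change -0.84, SE 0.30, adjusted p = 0.131; DKO against WT log2 fold change -0.78, SE 0.30, adjusted p = 0.142). Cdk16 was the gene nearest to the threshold between Sqstm1 KO and WT (log2 fold change 1.17, SE 0.34, adjusted p = 0.0637). It had 21.99, 37.7 and 25.5 in DKO cells, 41.9, 60.9 and 55.3 in Sqstm1 KO cells and 14.98, 24.1 and 31.5 in WT cells, and it was called there by DESeq2, by quantile normalization and with the replicate number as a block. Cdk11b, the highest of that group by count, had 136, 105 and 111 in DKO cells, 141, 117 and 273 in Sqstm1 KO cells and 114, 128 and 105 in WT cells.

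CDK inhibitors slow or stop the cycle. Of 7, 5 were tested and none was called, with median log2 fold changes of -0.32 between DKO and Sqstm1 KO, 0.06 between DKO and WT and -0.49 between Sqstm1 KO and WT. Cdkn2b, which encodes the CDK4 and CDK6 inhibitor p15, had 30.6, 19.4 and 22.9 in DKO cells, 29.6, 22.7 and 42.3 in Sqstm1 KO cells and 53.1, 59.5 and 37.6 in WT cells. Its DKO libraries were all below WT (log2 fold change -1.01, SE 0.33, adjusted p = 0.0877). Cdkn2a, the neighbouring gene for p16 and p19 Arf, had 57.4, 28.5 and 34.4 in DKO cells, 12.3, 14.6 and 32.5 in Sqstm1 KO cells and 16.3, 29.4 and 35.8 in WT cells. Its log2 fold change was 1.05 between DKO and Sqstm1 KO (adjusted p = 0.203). Cdkn1a, the p53 target p21, had 10.5, 26.3 and 12.7 in DKO cells, 5.10, 8.93 and 14.1 in Sqstm1 KO cells and 14.98, 9.79 and 21.2 in WT cells. Cdkn1b, which encodes p27, had 28.7, 71.9 and 68.8 in DKO cells, 54.1, 57.6 and 90.03 in Sqstm1 KO cells and 34.05, 41.4 and 43.1 in WT cells. Sample groups overlapped for both between DKO and WT. Cdkn1b was above WT in all Sqstm1 KO libraries, without a call.

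E2F factors include activators of S phase genes (E2f1 to E2f3) and repressors such as E2f7 and E2f8. E2f1 had 48.8, 14.8 and 17.8 in DKO cells, 20.4, 20.3 and 18.4 in Sqstm1 KO cells and 17.7, 15.1 and 15.2 in WT cells, with 1 DKO library far above the rest. E2f3 had 17.2, 23.97 and 17.8 in DKO cells, 20.4, 20.3 and 35.8 in Sqstm1 KO cells and 9.53, 11.3 and 11.5 in WT cells. All its DKO and Sqstm1 KO libraries exceeded WT, without a call (Sqstm1 KO against WT log2 fold change 1.12, SE 0.36, adjusted p = 0.0856; DKO against WT log2 fold change 0.80, adjusted p = 0.213). E2f8 had 18.2, 17.1 and 12.7 in DKO cells, 19.4, 21.1 and 14.1 in Sqstm1 KO cells and 5.45, 10.5 and 9.70 in WT cells. It too was above WT in the DKO and Sqstm1 KO libraries without a call (adjusted p = 0.221 and 0.155). E2f5, the highest E2F row by count, had 35.4, 98.2 and 56.04 in DKO cells, 99.03, 81.97 and 242 in Sqstm1 KO cells and 118, 112 and 95.2 in WT cells. Summed over all 8 E2F genes, levels were 144, 201 and 146 in DKO cells, 198, 185 and 335 in Sqstm1 KO cells and 187, 189 and 168 in WT cells, and the groups overlapped. Over the 5 with no overlapping gene on the other strand they were 78.4, 70.8 and 67.5 in DKO cells, 70.4, 61.7 and 79.2 in Sqstm1 KO cells and 50.4, 55.7 and 52.2 in WT cells. In this subset, but not over all 8 genes, DKO and Sqstm1 KO both lay above WT, and no sum was tested.

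No gene of origin licensing or the replicative helicase was called. The MCM2 to MCM7 proteins form the ring that is loaded at origins and unwinds DNA. Mcm3 had 139, 113 and 112 in DKO cells, 74.5, 84.4 and 97.6 in Sqstm1 KO cells and 70.8, 77.6 and 87.9 in WT cells. Mcm6 had 157, 188 and 153 in DKO cells, 115, 139.6 and 138 in Sqstm1 KO cells and 88.5, 100.2 and 134 in WT cells. For both, every DKO library was above every Sqstm1 KO and WT library, without a call (DKO against WT log2 fold change 0.61, SE 0.24, adjusted p = 0.153 for Mcm3 and log2 fold change 0.64, SE 0.25, adjusted p = 0.149 for Mcm6). Mcm2 had 68.8, 119.9 and 85.3 in DKO cells, 118, 136 and 91.1 in Sqstm1 KO cells and 65.4, 80.6 and 86.7 in WT cells. Mcm4 had 127, 100.5 and 104 in DKO cells, 123, 148 and 185 in Sqstm1 KO cells and 81.7, 107 and 121 in WT cells. In both, the Sqstm1 KO libraries were above WT (log2 fold changes 0.55 and 0.55, adjusted p = 0.293 and 0.259). Mcm5 had 51.6, 58.2 and 63.7 in DKO cells, 95.97, 83.6 and 56.4 in Sqstm1 KO cells and 53.1, 59.5 and 75.8 in WT cells. Mcm7 had 202, 178 and 195 in DKO cells, 203, 162 and 187 in Sqstm1 KO cells and 199, 180.0 and 184 in WT cells. Its log2 fold change between DKO and WT had a 95% interval of -0.45 to 0.51. Mcm9, a relative that works in DNA repair and was the highest of the group by count, had 879, 984 and 1098 in DKO cells, 1075, 830.3 and 1882 in Sqstm1 KO cells and 1651, 1256 and 1135 in WT cells. Over the 11 tested genes of the group the median log2 fold change was 0.05 between DKO and Sqstm1 KO, 0.11 between DKO and WT and 0.30 between Sqstm1 KO and WT. All 12 genes of the group summed to 1759, 1888 and 1951 in DKO cells, 1955, 1700.3 and 2770.2 in Sqstm1 KO cells and 2315, 1968 and 1922 in WT cells, and the groups overlapped. The 9 without an overlapping gene on the other strand summed to 613, 672 and 578 in DKO cells, 609, 656 and 629 in Sqstm1 KO cells and 417, 495 and 563 in WT cells. In this subset too, but not over all 12 genes, DKO and Sqstm1 KO both lay above WT.

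**Figure D3:**
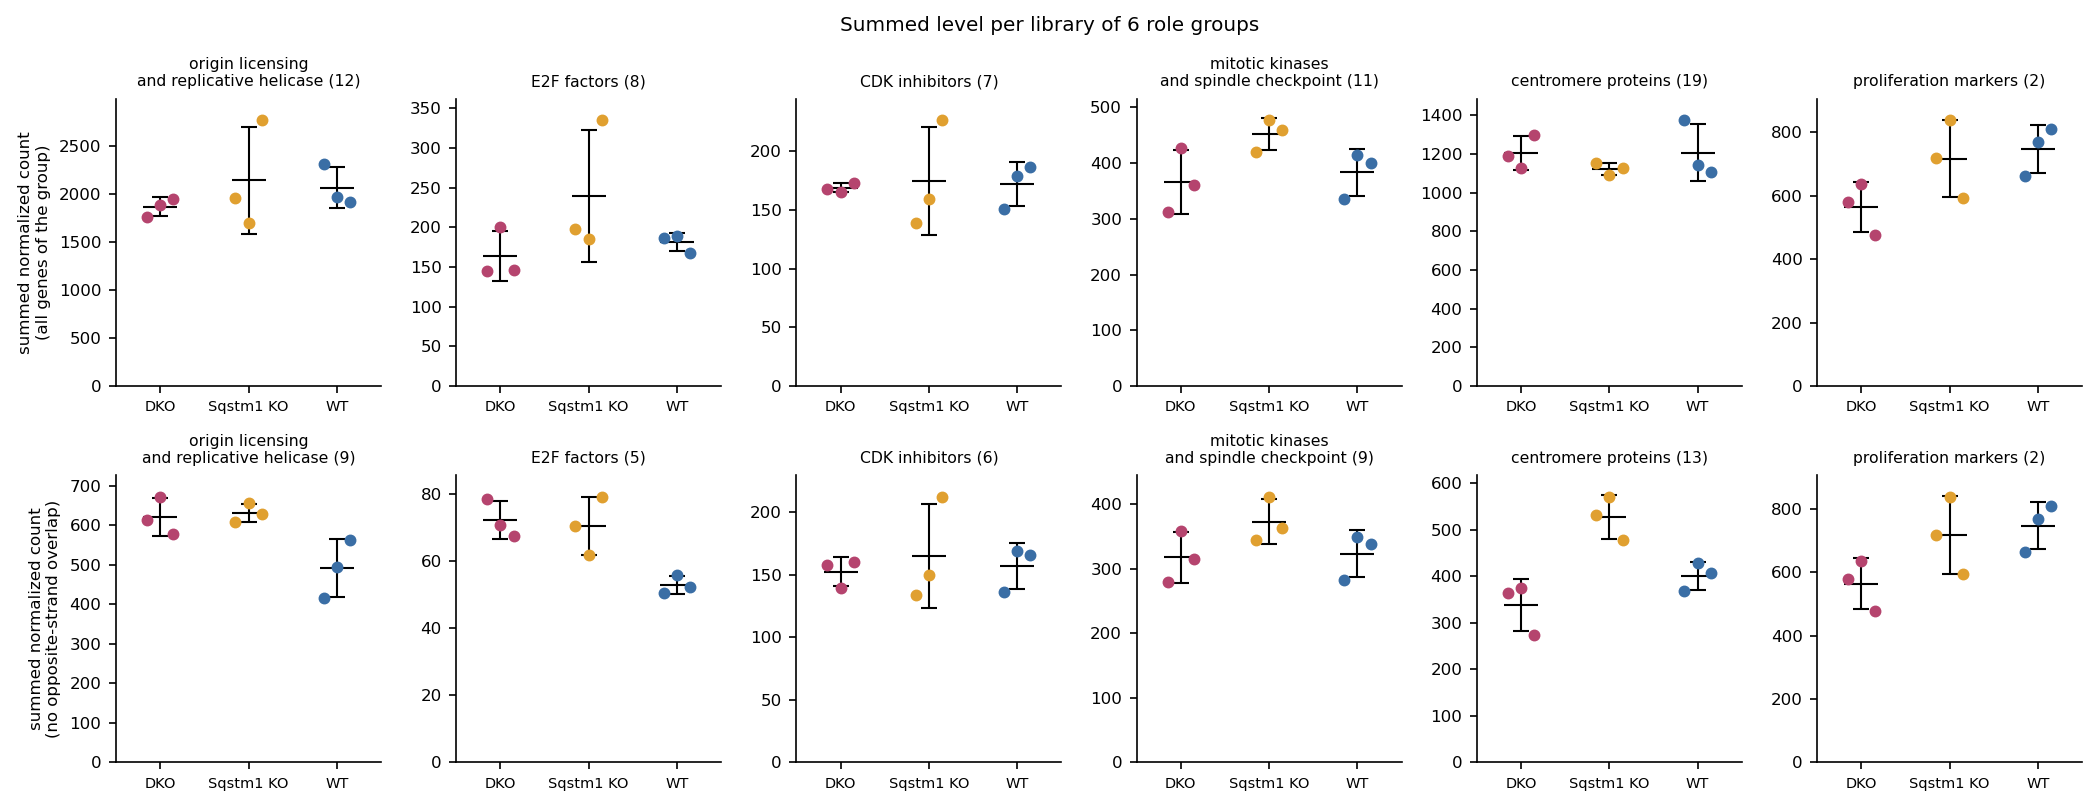
Summed normalized count per library (y axis, linear from 0) of 6 role groups, over all genes of the group (upper row) and over those without an overlapping gene on the other strand (lower row), with the number of genes in brackets; points are libraries, bars the mean and SD of 3 libraries of DKO, Sqstm1 KO and WT. The 19 centromere genes sum to 1127 to 1300 in DKO, 1092 to 1152 in Sqstm1 KO and 1107 to 1375 in WT, so the groups overlap. The 13 without an overlapping gene sum to 274 to 374 in DKO, 478 to 571 in Sqstm1 KO and 369 to 428 in WT.

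Mitotic kinases and the spindle checkpoint were not called. Aurka, a kinase of the spindle poles, had 44.9, 47.9 and 80.2 in DKO cells, 38.8, 45.4 and 45.6 in Sqstm1 KO cells and 21.8, 39.9 and 44.9 in WT cells. DKO was just above WT in all libraries (log2 fold change 0.70, adjusted p = 0.244). Aurkb, the kinase of the chromosomal passenger complex, had 4.78, 14.8 and 7.64 in DKO cells, 19.4, 22.7 and 11.9 in Sqstm1 KO cells and 14.98, 19.6 and 17.6 in WT cells. DKO was below WT in all libraries (log2 fold change -0.98, adjusted p = 0.212). Bub1, a checkpoint kinase at kinetochores, had 42.1, 73.1 and 45.8 in DKO cells, 50.02, 80.3 and 55.3 in Sqstm1 KO cells and 58.6, 64.03 and 67.9 in WT cells. Bub1b, which helps hold back anaphase, had 79.4, 65.1 and 64.95 in DKO cells, 77.6, 73.9 and 60.7 in Sqstm1 KO cells and 44.9, 61.8 and 53.97 in WT cells. Plk1, which drives mitotic entry and spindle assembly, had 17.2, 37.7 and 25.5 in DKO cells, 44.9, 32.5 and 34.7 in Sqstm1 KO cells and 27.2, 44.4 and 36.99 in WT cells. The 11 tested genes of this group also hold Cdca2, Cdca3, Cdca5 and Cdca8. Over the 11 the median log2 fold change was -0.52 between DKO and Sqstm1 KO, -0.19 between DKO and WT and 0.32 between Sqstm1 KO and WT.

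Exit from mitosis runs through the anaphase-promoting complex. Its activator Cdc20 had 37.3, 33.1 and 26.7 in DKO cells, 45.9, 53.6 and 49.9 in Sqstm1 KO cells and 29.96, 48.96 and 36.99 in WT cells. DKO was below Sqstm1 KO in all libraries (log2 fold change -0.62, adjusted p = 0.264). Cdc23, a subunit of the complex, had 5619, 5978 and 6638 in DKO cells, 6409, 4722 and 6406 in Sqstm1 KO cells and 6191, 4713 and 3957 in WT cells, far above any other of the 114 genes. Its exons overlap Kif20a on the other strand by 1271 bases. Plk2, a stress-responsive relative of Plk1, had 14.3, 26.3 and 30.6 in DKO cells, 14.3, 34.9 and 23.9 in Sqstm1 KO cells and 24.5, 34.7 and 43.7 in WT cells. Cdc14b, a phosphatase that counters CDKs, had 27.7, 22.8 and 43.3 in DKO cells, 24.5, 31.7 and 24.9 in Sqstm1 KO cells and 24.5, 23.4 and 16.98 in WT cells. Cdc37l1, the highest of the genes matched by name alone, had 467, 470.4 and 671 in DKO cells, 494, 401 and 267 in Sqstm1 KO cells and 546, 404 and 345 in WT cells. None of these 3 was called.

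Centromere proteins mark the centromere and link it to the spindle. The group was taken by the symbol Cenp, Cenpj included, whatever the role of each gene. The 15 tested gave a median log2 fold change of -0.52 between DKO and Sqstm1 KO, -0.06 between DKO and WT and 0.29 between Sqstm1 KO and WT, with no call. The sums over all 19 were 1190.5, 1127 and 1300.4 in DKO cells, 1152, 1092 and 1127 in Sqstm1 KO cells and 1375, 1141 and 1107 in WT cells, and the groups overlapped. Over the 13 without an overlapping gene they were 365, 374 and 274 in DKO cells, 532, 571 and 478 in Sqstm1 KO cells and 369, 428 and 407 in WT cells. The Sqstm1 KO libraries lay above all others in this subset but not in the sums over all 19. Cenpa, the histone H3 variant of centromeres, had 24.9, 18.3 and 12.7 in DKO cells, 24.5, 21.9 and 33.6 in Sqstm1 KO cells and 6.81, 21.1 and 20.6 in WT cells. Cenpe, a kinesin of the kinetochore, had 114, 113 and 72.6 in DKO cells, 212, 219 and 112 in Sqstm1 KO cells and 143, 162 and 159 in WT cells. Library 3 of Sqstm1 KO was lower than the other 2 of its group (DKO against Sqstm1 KO log2 fold change -0.82, SE 0.30, adjusted p = 0.144). Cenph, of the inner kinetochore, had 24.9, 19.4 and 17.8 in DKO cells, 20.4, 21.1 and 21.7 in Sqstm1 KO cells and 12.3, 10.5 and 8.49 in WT cells. It was above WT in all DKO and Sqstm1 KO libraries (DKO against WT log2 fold change 0.92, SE 0.34, adjusted p = 0.127). Cenpb, which binds a DNA motif in centromeric repeats, had 62.2, 34.2 and 29.3 in DKO cells, 55.1, 42.2 and 98.7 in Sqstm1 KO cells and 34.05, 27.9 and 23.6 in WT cells (Sqstm1 KO against WT log2 fold change 1.09, SE 0.37, adjusted p = 0.109). Cenpo had 472, 385 and 503 in DKO cells, 329, 258 and 322 in Sqstm1 KO cells and 625, 395 and 423 in WT cells.

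**Figure D4:**
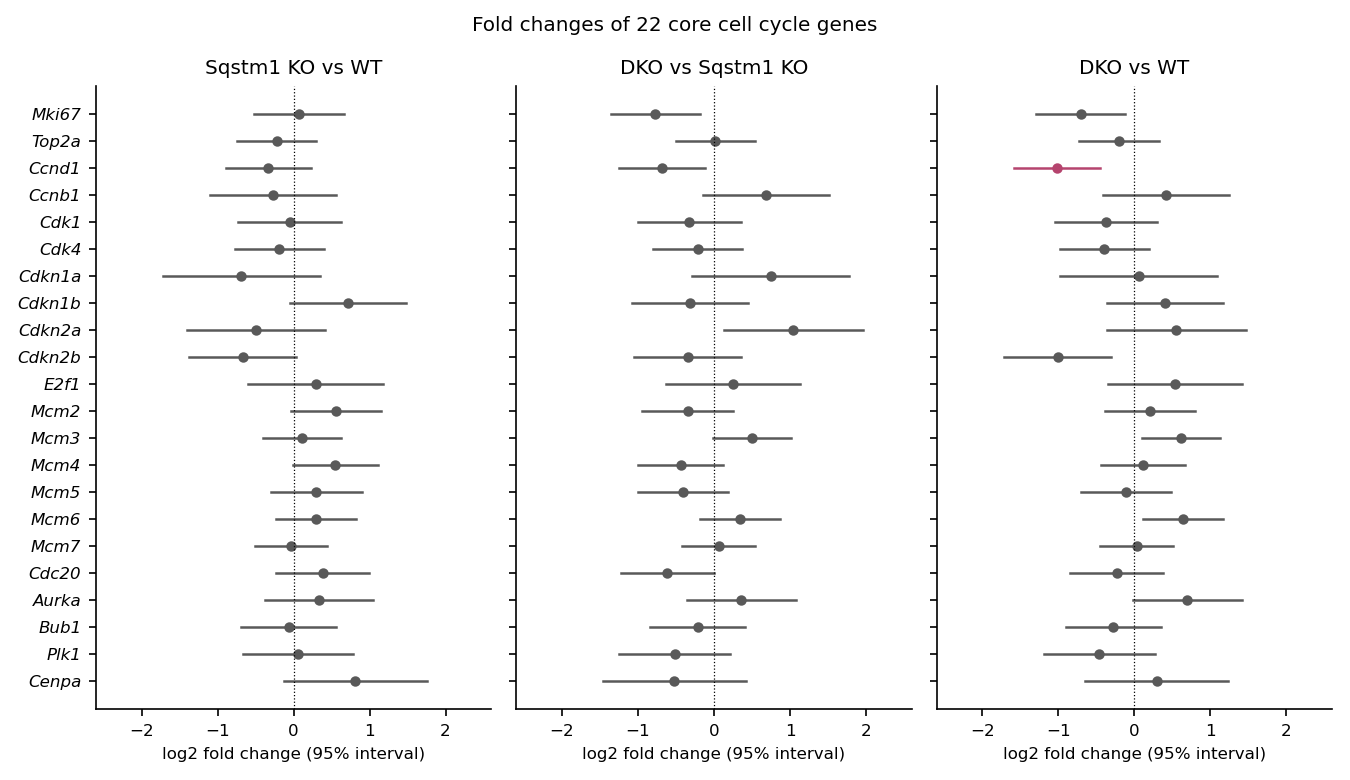
Log2 fold change (x axis) with the 95% interval of the limma model for 22 core cell cycle genes in each comparison; the 1 called value, Ccnd1 in DKO against WT, is coloured. Most intervals cross 0, such as Top2a in DKO against WT (-0.73 to 0.32).

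Levels between genes were compared per kb of exon, from GENCODE M21 exon lengths. The highest were Cdc23 at 592, Ccna2 at 199, Mcm9 at 132, Ccne2 at 122 and Cenpu at 70.7 normalized counts per kb, averaged over the 9 libraries. Each of those 5 has exons that overlap a gene on the other strand: Kif20a for Cdc23, Exosc9 for Ccna2, Asf1a for Mcm9, Ints8 for Ccne2 and Primpol for Cenpu. Top2a, at 40.2, was the highest without such an overlap, followed by Cdk11b at 36.4, Mcm4 at 33.97 and Mki67 at 31.2. Overlaps are no more frequent here than elsewhere: 41 of the 114 genes (36.0%) had one, against 36.5% of the 12373 genes matched. Of the 9 genes with a mean over 200 normalized counts, 7 had an overlap. Among the 100 highest of all matched genes 71 had one, against 36.3% of the other matched genes. The median level was 5.66 per kb for the 41 and 6.35 per kb for the other 73. Whether the high values come from the gene itself or from its partner was not tested. The unknown strand setting also bears on genes without an overlap, such as Mki67 and Top2a, and on sums over them. Its part there was not tested. Cdc23 alone made up 40.6% of the summed level of the 114 genes, so no sum over all of them is given.

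**Figure D5:**
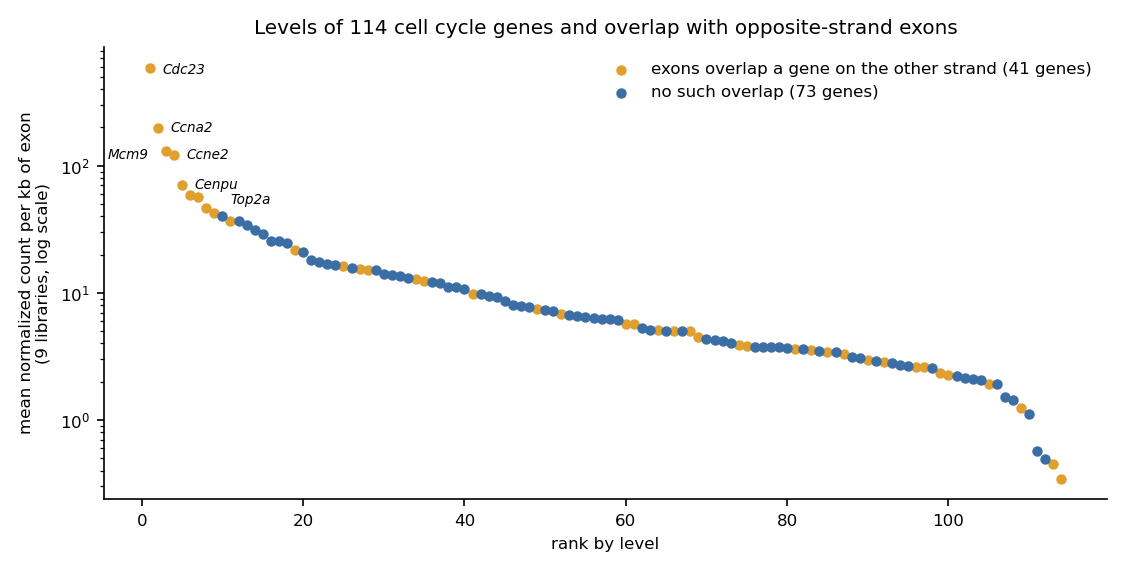
Mean normalized count per kb of exon over 9 libraries (y axis, log scale) of the 114 cell cycle genes, ranked from highest to lowest (x axis), coloured by whether exons overlap a gene on the other strand. The 5 highest genes, from Cdc23 at 592 to Cenpu at 70.7, all overlap one, and Top2a at 40.2 is the highest that does not.

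Other cell cycle genes outside the name pattern were read from a list of 96, of which 94 were tested. Between DKO and Sqstm1 KO 2 were lower and 0 higher in DKO (1.51% of all genes were lower, 4.42% higher). Smc4, a condensin subunit that compacts mitotic chromosomes, had 130.0, 288 and 218 in DKO cells, 351, 471 and 669 in Sqstm1 KO cells and 323, 358 and 449 in WT cells. It fell in DKO (log2 fold change -1.25, SE 0.32, adjusted p = 0.0363; limma). Racgap1, which acts in cytokinesis, had 87.02, 60.5 and 64.95 in DKO cells, 135, 148 and 114 in Sqstm1 KO cells and 117, 102 and 109 in WT cells and fell likewise (log2 fold change -0.90, SE 0.25, adjusted p = 0.0452). Between DKO and WT 1 was lower and 0 higher (2.31% of all genes were lower, 4.11% higher). That gene, Kif20b, a kinesin of cytokinesis, had 47.8, 43.4 and 42.03 in DKO cells, 78.6, 95.8 and 58.6 in Sqstm1 KO cells and 74.9, 103 and 93.4 in WT cells. It fell in DKO (log2 fold change -1.0005, SE 0.27, adjusted p = 0.0375). Between Sqstm1 KO and WT 3 were higher and 0 lower (2.43% of all genes were higher, 3.18% lower). Gmnn, the inhibitor of origin relicensing, had 59.3, 44.5 and 62.4 in DKO cells, 55.1, 47.1 and 95.4 in Sqstm1 KO cells and 27.2, 28.6 and 29.1 in WT cells and rose in Sqstm1 KO (log2 fold change 1.12, SE 0.30, adjusted p = 0.0462). Mad2l1, of the spindle checkpoint, had 74.6, 50.2 and 84.1 in DKO cells, 89.8, 89.3 and 72.7 in Sqstm1 KO cells and 34.05, 44.4 and 43.1 in WT cells and rose there (log2 fold change 1.04, SE 0.27, adjusted p = 0.0417). Ncapd2, another condensin subunit, had 125, 121 and 143 in DKO cells, 139, 173 and 180.1 in Sqstm1 KO cells and 77.6, 94.2 and 80.05 in WT cells and rose there too (log2 fold change 0.95, SE 0.23, adjusted p = 0.0280). Each of these 6 calls was lost in 5 to 8 of the 9 fits that left out 1 library. The median log2 fold change of the 94 was -0.21 between DKO and Sqstm1 KO, 0.00 between DKO and WT and 0.21 between Sqstm1 KO and WT.

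Of 20 p53 target genes, 18 had values and 13 were tested. Pmaip1, which encodes the pro-apoptotic protein NOXA, had 14.3, 3.42 and 16.6 in DKO cells, 0, 0 and 3.25 in Sqstm1 KO cells and 5.45, 15.1 and 9.70 in WT cells and was called higher in DKO than in Sqstm1 KO (adjusted p = 0.0466; limma). It was the 1 call among the 13 between DKO and Sqstm1 KO, where 4.42% of all genes were called higher. The Pmaip1 reads were few and 2 of the Sqstm1 KO libraries had none. Pmaip1 reached 10 only in libraries 1 and 3 of DKO and library 2 of WT, and in no Sqstm1 KO library. It thus entered this test only through groups where it is higher, and leaving out any of those libraries removed it. Its call was lost in 4 of the 6 fits that left out 1 library and still tested the gene. Over all 13 alternatives that tested it, 6 lost the call. The median log2 fold change of the 13 p53 targets tested was 0.15 between DKO and Sqstm1 KO, 0.03 between DKO and WT and -0.35 between Sqstm1 KO and WT.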

How the data were processed

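RNA was sequenced from cultured mouse hepatic stellate cells in 9 libraries, 3 per genotype. Deposited values are signal: reads per gene after the authors' scaling of each library by its size factor. Per the submitters' processing notes, STAR and DESeq2 were among the tools and GRCm39 was the build. The sources used here name no library kit, strand setting, counter, annotation or gene filter. Whole reads were recovered, since all non-zero values (100% of 121126) were multiples of the smallest step of their library within 0.01. The test was limma (3.58.1, R 4.3.3) with a mean-variance trend on log2(value + 1) over all 9 libraries in 3 groups, two-sided, with 14.0 degrees of freedom, for 10118 genes with at least 10 in at least 3 libraries. On the recovered reads edgeR (4.0.16) called 614 genes between DKO and Sqstm1 KO, 735 between DKO and WT and 642 between Sqstm1 KO and WT; DESeq2 (1.42.0) called 716, 880 and 802. The scripts were tested on simulated data. An exact permutation test of 3 against 3 cannot go below 0.1.

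The genes, lists, groups of roles and tests were chosen with earlier results of these data known. The text names the called genes, 22 core genes whatever their values, the highest gene of each role group, the 3 genes next to the threshold in each comparison, the targeted genes and called genes of the other lists. Ccnb2, Ccnd2, Ccnd3, Aurkb, E2f8, LTO1, Ccne2, Cenpu, the motifs and the promoters shown were added after their values were seen. GENCODE M21 and the RefSeq promoters are on the earlier build GRCm38 and served for names, exon lengths, overlaps and sequences only.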

Additional observations from a re-analysis of the deposited data

How the results depend on the processing

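The count of cell cycle genes called stayed small under every alternative tried. Between DKO and Sqstm1 KO it was 0 and ranged from 0 to 3 with 1 library left out. Between DKO and WT it was 1; it was 2 with quantile normalization (Ccnd1, Mcm9), 2 with only the DKO and WT libraries in the fit (Ccnd1, Cdkn2b), 0 among genes without an overlapping gene on the other strand, and 0 to 3 with 1 library left out. Without library 3 of Sqstm1 KO, Ccnd1, Cdk8 and Cdkn2b were called there, 3 of 100 tested, where 1409 of all 9958 genes were called. Between Sqstm1 KO and WT it was 0; it was 2 with quantile normalization (Cdk16, Cenpo), 1 with DESeq2 (Cdk16) and 1 with the replicate block (Cdk16), and 0 in every fit with 1 library left out. The cause of these shifts was not tested, beyond the fewer genes or samples that some settings hold. With quantile normalization 918 of all 10118 genes were called between DKO and WT and 688 between Sqstm1 KO and WT. With only the DKO and WT libraries 1260 of 9516 were called.

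Of 9 pairs of same-numbered libraries, 5 had deviations that correlated over 0.1 (range -0.115 to 0.178), against 3 of 18 other pairs (-0.258 to 0.261). Not every pair was over 0.1 and the labels name no shared source, so the numbers were not taken as pairing. Of the 9 libraries, 5 correlated best with their own number. With the replicate number as a block the count of cell cycle genes called was 0 between DKO and Sqstm1 KO, 1 between DKO and WT and 1 between Sqstm1 KO and WT. Over all 10118 genes 672, 754 and 690 were called there, in the same order.

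Of 145 fold changes of named genes, 2551 alternatives were run: 2412 kept direction and call, 57 lost a call, 12 gained one and 70 changed sign. No sign change touched a called value. With 1 library left out, signs of small log2 fold changes turned. Between DKO and Sqstm1 KO the ranges were Top2a -0.12 to 0.12, Cdk1 -0.62 to 0.040, Cdkn1b -0.55 to 0.10, E2f1 -0.26 to 0.56, Mcm7 -0.025 to 0.14, Cdc23 -0.080 to 0.14, Mcm9 -0.53 to 0.057, Ccna2 -0.66 to 0.20, Bub1b -0.12 to 0.052, Plk2 -0.34 to 0.30, Cdc14b -0.090 to 0.36, Cenph -0.17 to 0.058 and Sqstm1 -0.46 to 0.27. Between DKO and WT the ranges were Cdkn1a -0.32 to 0.31, Mcm2 -0.0069 to 0.39, Mcm4 -0.045 to 0.23, Mcm5 -0.22 to 0.035, Mcm7 -0.0098 to 0.080, Cenpa -0.20 to 0.55, Ccna2 -0.074 to 0.34, Cenpo -0.19 to 0.14, Cdk11b -0.096 to 0.088, Ccnd2 -9.2e-05 to 0.32 and Ccnd3 -0.19 to 0.55. Between Sqstm1 KO and WT the ranges were Mki67 -0.13 to 0.19, Ccnb1 -0.57 to 0.11, Cdk1 -0.41 to 0.25, Cdk4 -0.40 to 0.0013, Mcm7 -0.11 to 0.053, Bub1 -0.26 to 0.072, Plk1 -0.13 to 0.21, Mcm9 -0.49 to 0.096, Ccna2 -0.062 to 0.80, Cdc37l1 -0.37 to 0.071, E2f5 -0.26 to 0.51, Cdk8 -0.22 to 0.24, Cenpe -0.0047 to 0.48, Ccnb2 -0.77 to 0.20 and Aurkb -0.17 to 0.27. Quantile normalization turned Mki67 (-0.094) and Cdc23 (-0.25) between Sqstm1 KO and WT, Top2a (-0.020) between DKO and Sqstm1 KO, and Mcm7 (-0.077), Ccna2 (-0.12) and Cdk11b (-0.044) between DKO and WT. Cdk1 between Sqstm1 KO and WT turned with edgeR (0.022) and DESeq2 (0.045). Between only the 2 groups compared, the calls of Gmnn (adjusted p = 0.0778), Mad2l1 (0.0503), Ncapd2 (0.0594), Smc4 (0.0968) and Racgap1 (0.136) were lost by limma, and edgeR lost Racgap1 (0.0573).

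All genes called were 600 between DKO and Sqstm1 KO, 650 between DKO and WT and 568 between Sqstm1 KO and WT. They were 291, 360 and 290.0 with at least 50 in 3 libraries, where fewer genes were tested, 351 and 1260.0 for the first pair of these comparisons with only their own libraries, and 243 to 764, 251 to 1409 and 226 to 651 with 1 library left out. Reads per library, about 819677 to 1467793, limit what can be seen for low genes such as Cdkn1a and Aurkb.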
